A study of Mus musculus with 12 samples.

Results

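The genes described here encode the proteasome and its main transcriptional activator. They are the protein-coding genes whose GRCm38 GENCODE symbol starts with Psma to Psmg followed by a number, without Psmb8 and Psmb9, together with Nfe2l1 and Pomp. The rule found 50 of the 34866 genes in the table, on 16 chromosomes. 47 of them had a mean of at least 1 TPM (a level that corrects for transcript length and scales every library to the same total) and were tested. Psmb11 of the thymus, Psma8 of the testis and Psme2b did not reach that level. Psmc3ip matched by name, but its product works in meiotic recombination and is not a proteasome subunit.

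The proteasome degrades proteins that carry ubiquitin chains. Its core particle is a barrel of alpha and beta subunits with the peptidase sites inside, and the regulatory particle on its ends recognizes, unfolds and feeds in the substrates through a base of ATPases and scaffolds and a lid that removes the ubiquitin. Nfe2l1 (also called Nrf1 or TCF11) encodes a transcription factor anchored in the endoplasmic reticulum, which is cleaved and released when proteasome capacity falls short and then raises the genes of both particles together through antioxidant response elements. A shared shift of subunit mRNAs is therefore the known transcriptional sign of that response.

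Polyadenylated RNA was sequenced from 12 cultures of mouse embryonic fibroblasts (MEFs), 3 each of wild-type males (WT_M), Sirt3 knock-out males (KO_M), wild-type females (WT_F) and Sirt3 knock-out females (KO_F). All cells came from 13-day embryos of 129S1/SvImJ (Sirt3+/+) or Sirt3-/- mothers, were immortalized by stable transfection with SV40, and were taken at passage 6, 48 h after seeding. SIRT3 is the main deacetylase of mitochondria. Wells were seeded in triplicate, and the methods give no number of lines behind a group. If it was 1, an effect of the line cannot be told apart from those of genotype and sex, and p-values measure only the spread between cultures. Depth is unknown from TPM.

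Sirt3 itself (chr7:140863666-140882309, minus strand) was listed at 6.59, 7.17 and 9.07 TPM in WT_M and at 8.88, 10.9 and 11.0 TPM in KO_M. It stood at 7.40, 7.60 and 8.69 TPM in WT_F and at 7.57, 9.06 and 8.19 TPM in KO_F. Its mRNA was thus not lower in the libraries labelled KO (log2 fold change 0.39, adjusted p = 0.0981 in males, and 0.06, adjusted p = 0.772 in females), so that this gene's level does not check the labels. The Y-linked gene Ddx3y was at 31.7 to 36.6 TPM in the 6 libraries labelled male and at most at 0.218 TPM in the 6 labelled female. The summed level of 10 fibroblast markers, with Lum near 0, was higher in KO. It was 9087 to 10204 TPM in WT_M and 11429 to 12126 in KO_M, and 7937 to 8124 in WT_F and 9710 to 10044 in KO_F. Of 9 tested markers 4 rose in males and 7 in females, where 10.7% and 5.63% of all genes rose. Col1a1 alone went from 3184 to 4807 TPM in males and from 2127 to 3227 TPM in females, while Vim and Fn1 passed in neither sex. The sum of 5 epithelial markers was low and lower in KO, at 9.47 to 10.6 TPM in WT_M, 0.603 to 1.121 in KO_M, 6.35 to 7.46 in WT_F and 1.80 to 2.25 in KO_F. Both tested markers fell in each sex, where 10.9% of all genes fell in males and 5.84% in females. The sums of 4 endothelial and 5 haematopoietic markers did not exceed 5.76 and 11.4 TPM. The 1 tested endothelial marker, Kdr, fell in females from 4.77 ± 0.42 to 1.76 ± 0.11 TPM (-1.06, adjusted p = 0.00368 in limma). Des, the 1 tested of 3 muscle markers, fell in females from 6.26 ± 0.48 to 0.128 ± 0.19 TPM (-2.70, adjusted p = 0.000295). It was at 0.175 TPM in WT_M and 0.108 TPM in KO_M. Neither gene passed in males. Mbp, the 1 tested of 3 neural crest and glia markers, passed in neither sex. The part of these marker levels in the differences between KO and WT was not tested. In these bulk samples, fewer cells of a type and less RNA per cell cannot be told apart. The nearest library of each of the 12 was one of its own group.

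Promoter sequences were read from the RefSeq windows of GRCm38.p6, which run from 250 bases before to 50 bases from a transcription start and were given for 42 of the 50 genes. The ETS core motif CCGGAAG, bound by many broadly expressed factors, was found on either strand in the windows of 9 of 14 regulatory particle genes (64.3%), in 1 of 11 core particle genes (9.09%) and in 9.93% of all 27025 genes. The antioxidant response element core TGACNNNGC, the letters bound by Nfe2l1 and Nfe2l2 with small Maf proteins, was found in 6 of the 42 genes (14.3%), against 13.99% of all genes. Of the peptidase genes, Psmb5 and Psmb6 hold it close to the RefSeq start, 47 and 9 bases before that start, while no window was given for Psmb7. CCAAT, the NF-Y box, was found in 6 of 11 core genes and 4 of 14 regulatory genes (41.1% of all genes), and GCATGCGC, of nuclear respiratory factor 1, in 3 of 42 (3.05% of all genes). In the stretches printed here no match overlaps another, and a match is a description of letters, not of binding.

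The stretches below run from 60 bases before the RefSeq start to 10 bases from it, 5′ to 3′ on the gene's own strand. In 8 of the 10 stretches the bases from the start on were found in a GENCODE transcript of the gene. The RefSeq starts of Psmb6 (70525357) and Psma7 (180042464) lie outside the GENCODE genes, which begin at 70525367 and 180042433. The first pair shows the peptidase genes with the element TGACNNNGC in capitals, on chr14:54617986-54618055 (minus strand) and chr11:70525297-70525366 (plus strand).
Psmb5: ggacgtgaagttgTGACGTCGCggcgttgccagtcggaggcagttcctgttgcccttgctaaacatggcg
Psmb6: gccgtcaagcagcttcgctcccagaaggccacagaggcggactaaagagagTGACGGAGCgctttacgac

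The next 6 are regulatory particle genes chosen because the ETS core, in capitals as CCGGAAG or as CTTCCGG on the other strand, lies within the printed stretch. Of the other 3 that hold it, Psmc6 and Psmd4 have it farther out, 100 and 125 bases before the start, and Psmc2 has different windows with it 84 and 24 bases before theirs. They lie at chr12:100110142-100110211 (Psmc1, plus), chr16:20651592-20651661 (Psmd2, plus), chr14:14120936-14121005 (Psmd6, minus), chr11:80428555-80428624 (Psmd11, plus), chr11:107479468-107479537 (Psmd12, plus) and chr7:140882334-140882403 (Psmd13, plus).
Psmc1: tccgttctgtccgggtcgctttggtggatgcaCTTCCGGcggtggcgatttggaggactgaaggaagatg
Psmd2: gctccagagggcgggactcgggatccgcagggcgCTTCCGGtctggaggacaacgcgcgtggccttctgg
Psmd6: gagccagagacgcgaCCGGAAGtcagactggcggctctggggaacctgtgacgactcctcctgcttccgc
Psmd11: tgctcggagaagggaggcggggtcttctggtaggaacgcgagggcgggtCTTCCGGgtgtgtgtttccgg
Psmd12: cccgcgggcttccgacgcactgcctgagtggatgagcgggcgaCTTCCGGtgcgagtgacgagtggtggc
Psmd13: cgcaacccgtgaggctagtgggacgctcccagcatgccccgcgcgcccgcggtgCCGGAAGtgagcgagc

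The last pair is shown because these genes changed in the libraries. Neither stretch, at chr7:29180664-29180733 (Psmd8, minus) and chr2:180042455-180042524 (Psma7, minus), holds either motif, and Psmd8 holds none of the 4 motifs in its whole window.
Psmd8: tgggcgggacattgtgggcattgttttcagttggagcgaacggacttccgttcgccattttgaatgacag
Psma7: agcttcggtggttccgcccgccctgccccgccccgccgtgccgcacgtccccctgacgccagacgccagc

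The genes of both particles were abundant in all 4 groups. The 14 core genes together held 3485 to 3795 TPM per library and the 17 regulatory genes 3159 to 3316 TPM. Their sum made up 0.668% to 0.708% of all TPM. Core over regulatory sum was 1.13 ± 0.025 in WT_M, 1.14 ± 0.019 in KO_M, 1.11 ± 0.014 in WT_F and 1.11 ± 0.020 in KO_F (SD, n = 3). The groups overlapped, except that WT_F (1.091 to 1.115) lay below KO_M (1.124 to 1.161). As deposited, the sum of the 31 genes was 7011 ± 63.7 TPM in WT_M and 6814 ± 44.5 TPM in KO_M, without overlap, and 6828 ± 130 and 6734 ± 54.1 TPM in WT_F and KO_F, with overlap. After median-of-ratios scaling, added after seeing the data, the male groups overlapped too (6824 to 7185 against 6636 to 7094).

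**Figure D1:**
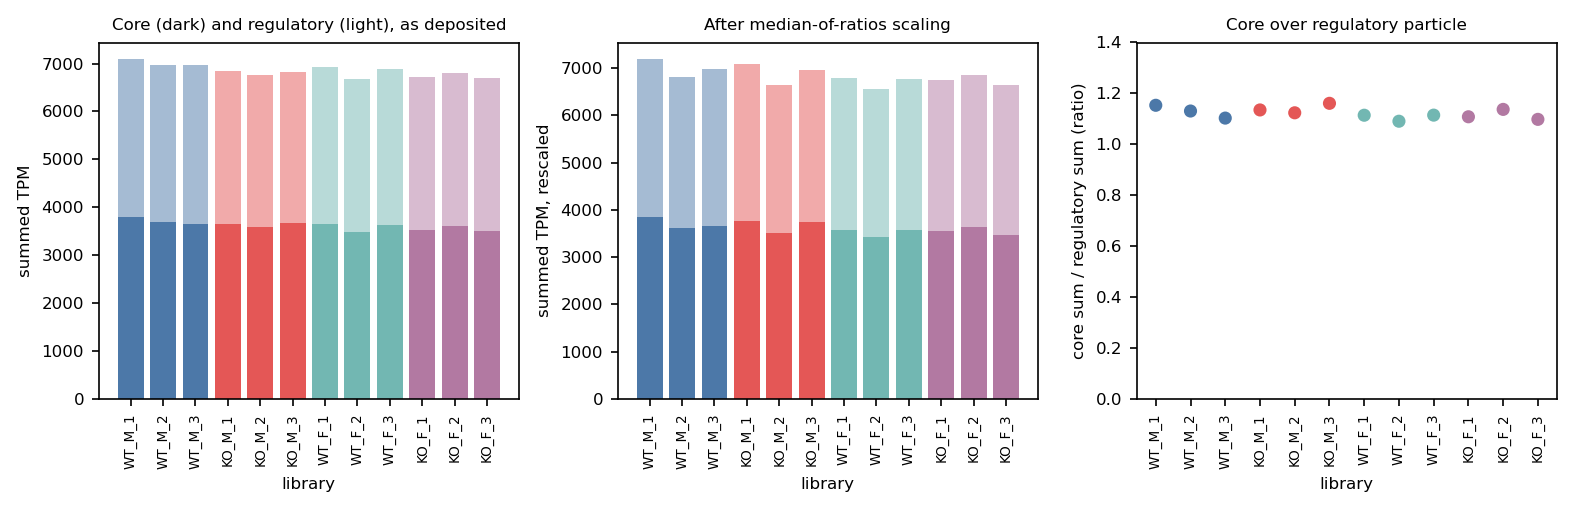
Summed TPM of the 14 core genes (dark) and 17 regulatory genes (light) in each of the 12 libraries, as deposited (left) and after median-of-ratios scaling (middle), and the ratio of the sums (right). The ratio lies between 1.09 and 1.16 in every library.

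Within a library the levels of single subunits differed more than the groups did. On the TPM scale, core genes ran from Psma2, at 92.3 to 104 TPM, to Psmb3, at 366 to 421 TPM, so that the highest was 3.71 to 4.56 times the lowest in a library. Regulatory genes spanned 2.59 to 2.84 times, with Psmd2 the highest by mean level. All 6 of Psmb1, Psmb2, Psmb3, Psmb4, Psmb6 and Psmb7 exceeded 250 TPM in every library, while Psmb5, which encodes the chymotrypsin-like peptidase, stayed between 133 and 201 TPM. Psmb5 stood at 0.388 to 0.580 of Psmb6 (caspase-like peptidase) and at 0.402 to 0.618 of Psmb7 (trypsin-like peptidase). The order of the 31 genes was nearly the same in all libraries, with Spearman's rho of 0.952 to 0.994 over the 66 pairs, a description over genes that share each library.

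The same genes varied little between libraries. Over the 12 libraries the median coefficient of variation was 5.46% for core genes and 3.97% for regulatory genes, against 13.1% for all 12504 genes tested. For the 6480 genes whose mean level fell in the members' range (18.6 to 387 TPM) it was 9.51%. Those genes are not matched in level, with a median of 48.5 TPM, where core genes had 271 and regulatory genes 184 TPM. Whether the spread was lower at equal level was not tested. The 8 assembly chaperone genes, among them Pomp, Psmg1 to Psmg4 and the base chaperones Psmd5, Psmd9 and Psmd10, had a median of 12.6%. Their median level was lower too, at 52.3 TPM. Of the 31 particle genes, 24 were among the 10% of tested genes with the lowest coefficient of variation (5.84% or less), 10 core and 14 regulatory. Psmd2, a scaffold gene of the base, had the lowest of all 12504 genes, at 1.37%, with 282 to 294 TPM in the 12 libraries. With median-of-ratios scaling 20 of the 31 remained in the lowest 10% (6 core and 14 regulatory), and Psmd2 ranked 2 from the lowest at 2.10%.

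**Figure D2:**
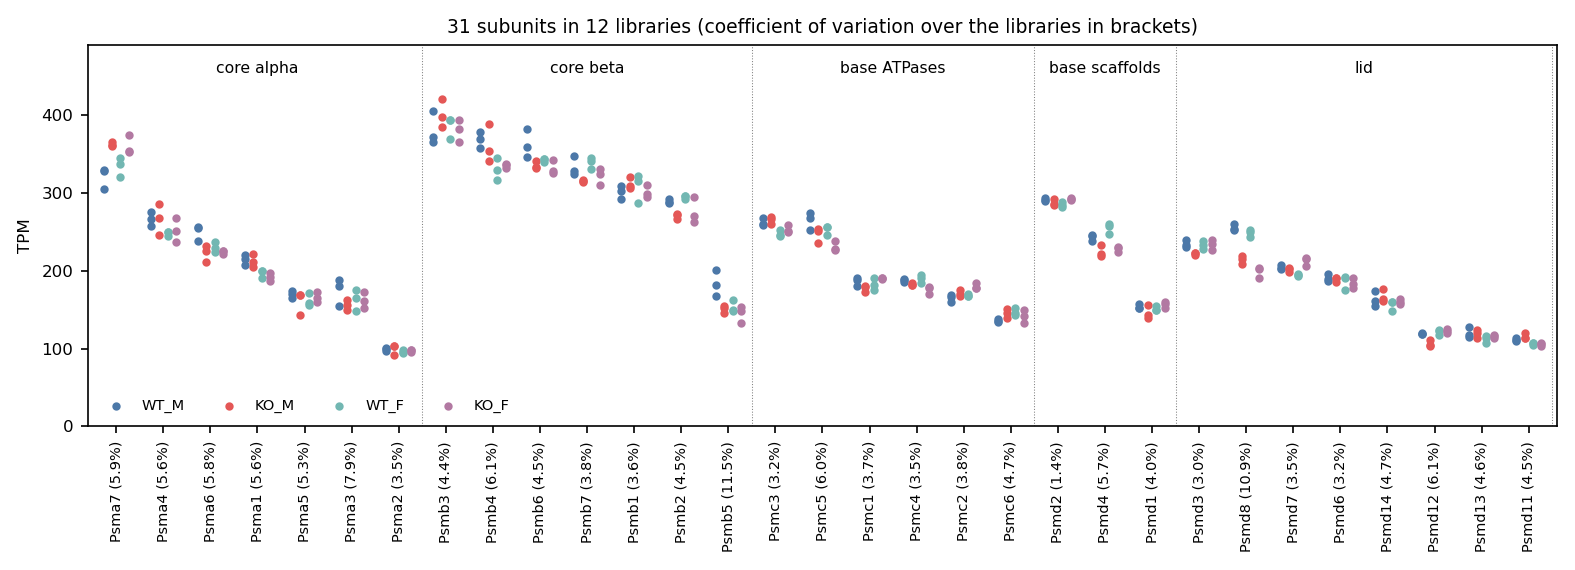
TPM of the 31 core and regulatory particle genes in the 12 libraries, coloured by group and ordered by mean level within each role, with the coefficient of variation over the libraries in brackets. Psmb5 (11.5%) and Psmd8 (10.9%) spread most and Psmd2 (1.37%) least.

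The comparison of KO with WT in each sex asks what loss of Sirt3 does to these genes. Few of them changed. In males 5 of the 47 tested genes passed (10.6%), 1 higher and 4 lower, where 21.6% of all tested genes passed, 10.7% higher and 10.9% lower. In females 3 of 47 passed (6.38%), 1 higher and 2 lower, against 11.5% of all genes, 5.63% higher and 5.84% lower. Among the 6480 genes with a mean level in the members' range, 24.2% passed in males and 13.5% in females. The share over all 47 members thus lay under the background in both sexes. That did not hold for every part in females, where 3 of the 17 regulatory genes (17.6%) and 2 of the 8 lid genes (25%) passed. Both lie above the female share of all genes, but rest on 2 or 3 genes. In males 2 of the 8 lid genes passed (25%), which is close to the 21.6% of all genes and the 24.2% of genes in the members' range. With each of the 6 libraries left out in turn, Psmd8 kept its call in all 6 fits of both sexes, Psma7 kept its male call in 3, Psmb5 and Psmd12 in 1 each and Psme1 in none, and Psmd4 kept its female call in 1 and Psmd7 in none.

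The sizes were small too. No member differed by more than 0.5 on the log2 scale in either sex, where 14.8% of all genes did in males and 8.64% in females. The median log2 fold change of the 14 core genes was -0.055 in males and -0.025 in females, and that of the 17 regulatory genes -0.021 and 0.023, beside -0.015 and -0.023 for all genes tested. In males 2 of 14 core genes (14.3%) and 2 of 17 regulatory genes (11.8%) passed, against 21.6% of all genes. In females no core gene and 3 of 17 regulatory genes (17.6%) passed, against 11.5% of all genes. At an unadjusted p under 0.05 in limma there was 1 of 14 core genes in females, beside 3399 of all 12504 genes. Over the core genes the 95% intervals of the male difference lay between -0.44 and 0.27, and over the regulatory genes between -0.33 and 0.20. In females these bounds were -0.23 to 0.20 and -0.41 to 0.20. Core and regulatory genes were not compared by a test.

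**Figure D3:**
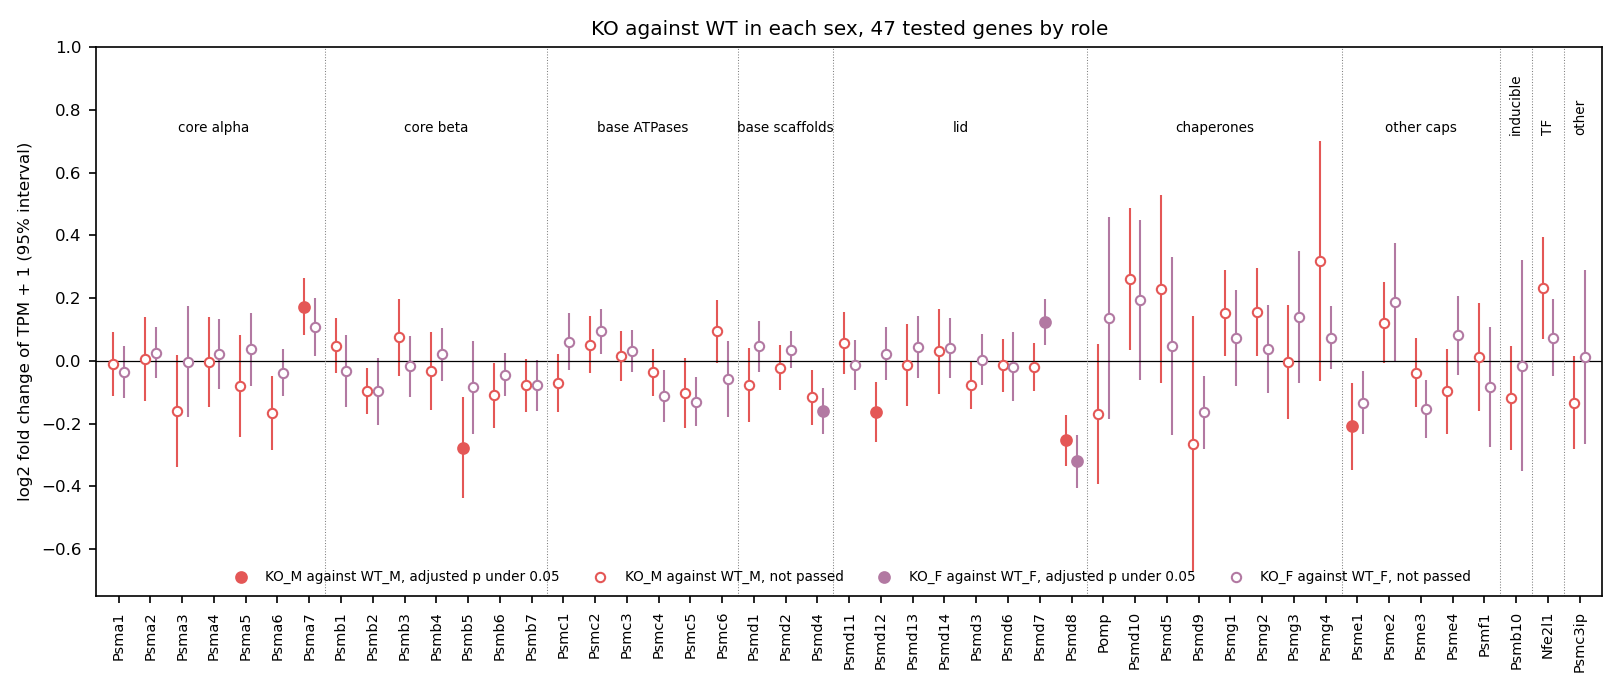
Log2 fold change of KO against WT, on log2(TPM + 1), with its 95% interval, for the 47 tested genes ordered by role, males in red and females in purple (filled where the adjusted p was under 0.05). Psmd8 is the only gene filled in both sexes, and Psmb5 the only core gene filled below 0.

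Nfe2l1 (chr11:96817414-96829968, minus strand) was expressed at about the level of a lower subunit. It stood at 108, 125 and 110 TPM in WT_M and at 143, 128 and 132 TPM in KO_M, with every KO_M library above every WT_M library. The male difference of 0.23 ± 0.069 (SE) on the log2 scale had an adjusted p of 0.054 and did not pass, but it passed without WT_M replicate 2 (0.30, adjusted p = 0.0253). The authors, who used DESeq2, marked Nfe2l1 as significantly different between male WT and male KO. In WT_F it was at 119, 130 and 127 TPM and in KO_F at 139, 130 and 127 TPM, which overlap (0.07 ± 0.051, adjusted p = 0.411). The interaction did not pass (0.16, 95% interval -0.04 to 0.36, adjusted p = 0.314), and WT_M had the lowest group mean.

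Of the 10 tested genes that release and process Nfe2l1 (Ngly1, which removes its glycans, the protease gene Ddi2, the extraction ATPase gene Vcp and its cofactors, and ubiquitin ligases), 1 rose in males and none passed in females, against 21.6% and 11.5% of all genes. In females Ddi2 had the lowest adjusted p (0.0548). The riser was Syvn1, the ligase of endoplasmic reticulum degradation, at 30.9, 33.1 and 31.6 TPM in WT_M and 39.0, 42.6 and 40.9 TPM in KO_M (0.35 ± 0.060, adjusted p = 0.00741). Ddi2 was at 40.1 to 42.0 TPM in WT_M and 37.9 to 45.1 TPM in KO_M, and Ngly1 at 10.9 to 13.6 TPM and 11.1 to 11.5 TPM. Ddi1 was near 0 in all libraries.

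Of 6 tested relatives and dimer partners, 2 rose and 2 fell in males, where 21.6% of all genes passed, and 1 rose and 1 fell in females, where 11.5% did. Nfe2l2, the oxidative stress factor that binds the same element, rose from 48.9 ± 0.61 to 55.3 ± 0.59 TPM in males (0.17, adjusted p = 0.0312) and stood at 44.2 ± 1.1 and 45.4 ± 2.9 TPM in females. The small Maf genes, which encode the partners of both factors, did not move one way. Mafg rose in males (0.31, adjusted p = 0.0228), Mafk fell in males (-0.50, adjusted p = 0.0114), and Maff fell in males (-0.34, adjusted p = 0.0224) and in females (-0.27, adjusted p = 0.0479). Bach1, the repressor at the same element, rose in females from 20.5 ± 0.57 to 24.4 ± 0.45 TPM (0.24, adjusted p = 0.0417).

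**Figure D4:**
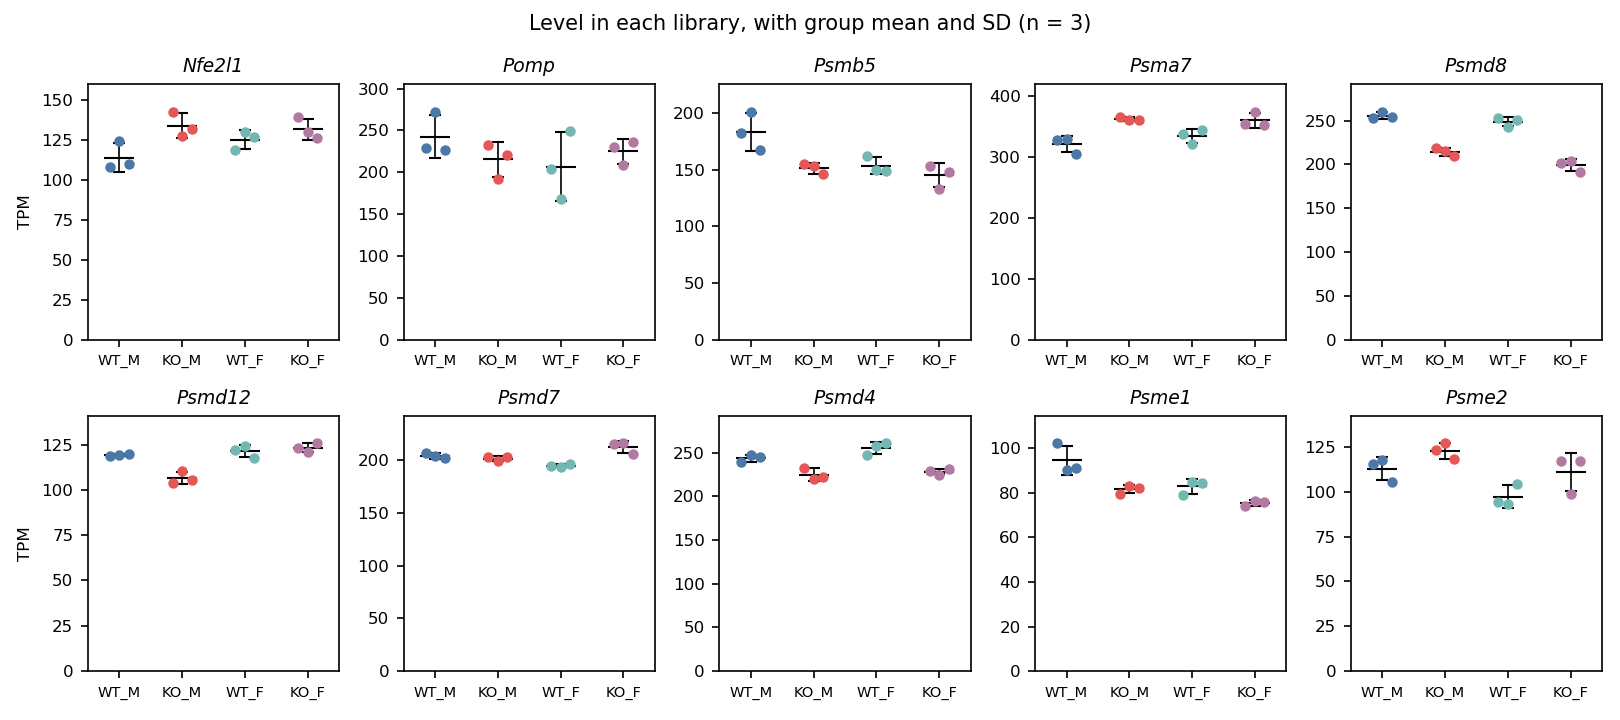
TPM of 10 genes in each library (points), with the mean and SD of the 3 libraries of a group. Psmd8 is lower in both KO groups, Psmb5 and Psme1 are highest in WT_M, Psmd12 is lowest in KO_M, and Nfe2l1 is lowest in WT_M.

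Psmd8 (chr7:29174188-29180701, minus strand), a subunit that joins late in lid assembly, was the one member that passed in both sexes. It was at 253, 260 and 254 TPM in WT_M and at 219, 215 and 209 TPM in KO_M. In females it was at 253, 243 and 250 TPM in WT_F and at 202, 204 and 191 TPM in KO_F. All 6 KO libraries lay below all 6 WT libraries. The fold changes were -0.25 ± 0.034 in males (adjusted p = 0.00259) and -0.32 ± 0.036 in females (adjusted p = 0.00279), that is 0.839 and 0.801 times WT, and their difference did not pass (0.07, 95% interval -0.04 to 0.17, adjusted p = 0.431). Relative to the median of the 7 other lid genes of the same library, a ratio chosen after the values were seen, Psmd8 stood at 1.57 ± 0.11 in WT_M, 1.28 ± 0.039 in KO_M, 1.59 ± 0.038 in WT_F and 1.24 ± 0.032 in KO_F. Its annotated exons overlap those of no other gene.

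Psmd12 (chr11:107479484-107504362, plus strand), a lid scaffold, was at 119, 119 and 120 TPM in WT_M and at 104, 111 and 105 TPM in KO_M (-0.16 ± 0.040, adjusted p = 0.0287). It was at 122, 124 and 118 TPM in WT_F and at 123, 121 and 126 TPM in KO_F, which overlap (0.02, adjusted p = 0.725), and the sexes differed (interaction -0.19 ± 0.050, adjusted p = 0.0316). KO_M also lay below KO_F (-0.21, adjusted p = 0.0146), so that KO_M was the group apart. Psmd7, the partner of the lid deubiquitinase Psmd14, was at 207, 204 and 202 TPM in WT_M and at 203, 199 and 203 TPM in KO_M (-0.02, adjusted p = 0.706). It rose in females from 195, 194 and 197 TPM in WT_F to 216, 216 and 206 TPM in KO_F (0.12 ± 0.030, adjusted p = 0.0468), which differed from the male value (interaction -0.14 ± 0.040, adjusted p = 0.0373). Psmd14 was at 155 to 174 TPM in WT_M and 162 to 176 TPM in KO_M, and at 149 to 160 and 158 to 164 TPM in the female groups.

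**Figure D5:**
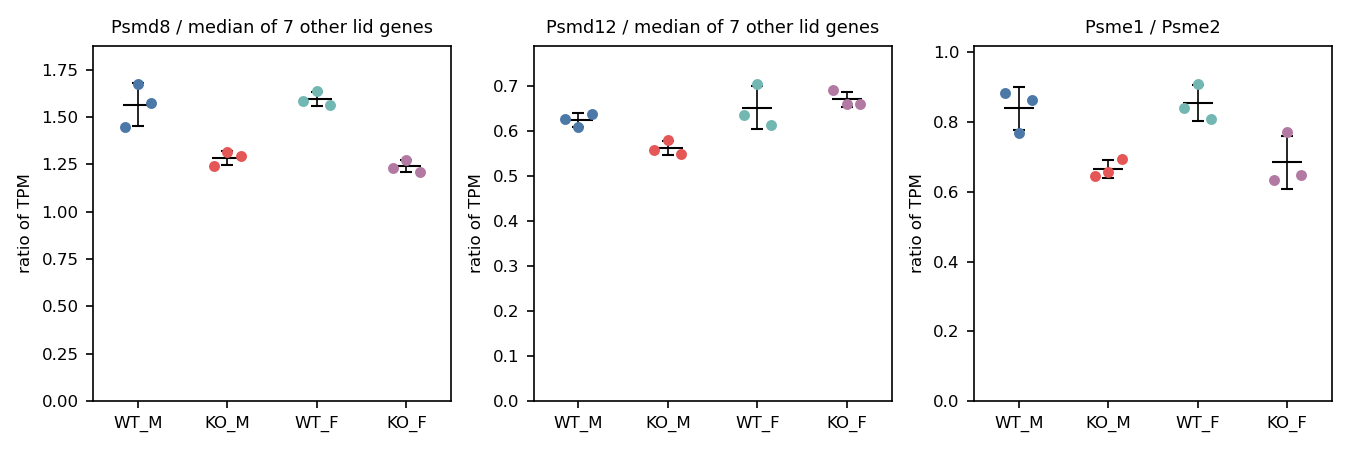
Ratios of TPM within each library, with group mean and SD (n = 3): Psmd8 and Psmd12 over the median of the 7 other lid genes, and Psme1 over Psme2. The Psmd8 ratio is 1.21 to 1.32 in the 6 KO libraries and 1.45 to 1.68 in the 6 WT libraries.

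In the interaction test 2 of 47 members (4.26%) passed, both lower in males, against 13.0% of all genes (6.70% higher and 6.33% lower). The calls on Psmd12 and Psmd7 did not hold in many alternatives. Leaving out 1 library left 0 or 1 of them. Psmd8 kept its call in both sexes under all 28 alternatives, any left-out library included.

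In the base, Psmd4 (chr3:95032694-95042614, minus strand), a ubiquitin receptor, fell in females. It was at 247, 257 and 261 TPM in WT_F and at 229, 225 and 231 TPM in KO_F (-0.16 ± 0.031, adjusted p = 0.022). In males it was at 239, 247 and 245 TPM and at 233, 220 and 222 TPM (-0.12 ± 0.037, adjusted p = 0.0692), again with all KO below all WT. No ATPase gene passed in limma in either sex. At an unadjusted p under 0.05 there were 0 of 6 in males and 3 of 6 in females, beside 4383 and 3399 of all 12504 genes. Psmc5 came nearest, at 246 to 257 TPM in WT_F and 227 to 238 TPM in KO_F (-0.13, adjusted p = 0.0526). Adrm1, the other ubiquitin receptor of the base, which the symbol rule leaves out, was at 190 to 213 TPM in all 12 libraries.

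Psmd13 (chr7:140881968-140898643, plus strand), a lid gene, lies head to head with Sirt3 and was looked at for that place, after its values were seen. The annotations overlap by 342 bases and the RefSeq starts lie 85 bases apart. It was at 115, 118 and 127 TPM in WT_M, at 120, 124 and 113 TPM in KO_M, at 116, 113 and 107 TPM in WT_F and at 113, 116 and 117 TPM in KO_F. The groups overlapped in males (-0.01, 95% interval -0.14 to 0.12, adjusted p = 0.902) and in females (0.05, -0.05 to 0.14, adjusted p = 0.531). Whether the counting used strand is not given in the sources used here.

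In the core, Psmb5 (chr14:54614119-54618022, minus strand) fell in males. It was at 182, 201 and 167 TPM in WT_M and at 154, 153 and 146 TPM in KO_M (-0.28 ± 0.068, adjusted p = 0.0283). In females it was at 162, 149 and 149 TPM in WT_F and at 153, 133 and 148 TPM in KO_F (-0.08 ± 0.062, adjusted p = 0.44), and the interaction did not pass (-0.19, 95% interval -0.41 to 0.02, adjusted p = 0.256). WT_M was above every other library, and against WT_F it was higher by 0.25 (adjusted p = 0.0634), which did not pass. The annotation places the microRNA gene Mir686 within the exons of Psmb5.

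The other peptidase genes did not pass. Psmb6 was at 383, 346 and 359 TPM in WT_M and at 332, 334 and 341 TPM in KO_M (-0.11, adjusted p = 0.121), and at 344, 344 and 340 TPM in WT_F and 328, 343 and 326 TPM in KO_F (-0.04, adjusted p = 0.373). Psmb7 was at 347, 325 and 328 TPM in WT_M and at 317, 314 and 316 TPM in KO_M (-0.08, adjusted p = 0.173). Its female groups stood at 345, 342 and 332 TPM and at 324, 331 and 310 TPM (-0.08, adjusted p = 0.195). KO lay under WT without overlap for Psmb6 in males and for Psmb7 in both sexes.

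Psma7 (chr2:180036374-180042433, minus strand), an alpha ring subunit, went the other way. It was at 329, 330 and 306 TPM in WT_M and at 366, 361 and 360 TPM in KO_M (0.17 ± 0.039, adjusted p = 0.0204). In WT_F it was at 338, 321 and 345 TPM and in KO_F at 354, 375 and 353 TPM (0.11 ± 0.039, adjusted p = 0.128). KO lay above WT without overlap in both sexes, and the interaction did not pass (0.07, adjusted p = 0.521). Psma6, of the same ring, was at 239 to 257 TPM in WT_M and 211 to 233 TPM in KO_M (-0.17, adjusted p = 0.0554).

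None of the 8 assembly chaperone genes passed in limma in either sex. At an unadjusted p under 0.05 there were 3 in males and 1 in females, beside 4383 and 3399 of all 12504 genes. Pomp (chr5:147860461-147876456, plus strand), whose product guides the assembly of the beta subunits, was at 229, 272 and 226 TPM in WT_M and at 233, 192 and 221 TPM in KO_M (-0.17 ± 0.094, adjusted p = 0.249). It was at 204, 168 and 249.1 TPM in WT_F and at 231, 208 and 236 TPM in KO_F (0.14 ± 0.14, adjusted p = 0.568). The groups overlapped in both sexes, and the female interval of -0.19 to 0.46 is wide. The male values of the 8 genes ran from -0.26 (Psmd9) to 0.32 (Psmg4), with a median of 0.15, and the female ones from -0.16 to 0.19, with a median of 0.073.

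The alternative caps open the core without ubiquitin. Psme1 (chr14:55578123-55581529, plus strand) and Psme2 (chr14:55587441-55591113, minus strand) encode the partners of 1 interferon-inducible ring, and their mRNAs had opposite signs. Psme1 fell in males, from 102, 90.4 and 91.3 TPM in WT_M to 79.6, 83.3 and 82.1 TPM in KO_M (-0.21 ± 0.058, adjusted p = 0.0445). In females it was at 79.1, 85.1 and 84.6 TPM in WT_F and at 74.04, 76.4 and 76.1 TPM in KO_F (-0.13, adjusted p = 0.0963). Psme2 was at 116, 117 and 106 TPM in WT_M and at 123, 127 and 118 TPM in KO_M (0.12, adjusted p = 0.163). It was at 94.0, 93.4 and 105 TPM in WT_F and at 117, 98.9 and 117 TPM in KO_F (0.19, adjusted p = 0.191).

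The ratio of Psme1 to Psme2 within a library, chosen after the values were seen, was 0.769 to 0.884 in WT_M and 0.644 to 0.695 in KO_M. In females it was 0.809 to 0.911 in WT_F and 0.634 to 0.772 in KO_F. KO was lower without overlap in both sexes. Psme2b, a copy of Psme2, was listed at 0 in 7 libraries and at most at 1.996 TPM.

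Of 13 tested genes of the interferon response, 9 fell and 1 rose in males, where 10.9% of all genes fell and 10.7% rose, and 4 fell and 1 rose in females, against 5.84% and 5.63%. Their median log2 fold change was -0.48 in males and -0.23 in females, a sign that Psme1 shared and Psme2 did not. Their summed level was 2025 to 2078 TPM in WT_M, 1488 to 1549 in KO_M, 1406 to 1428 in WT_F and 1295 to 1342 in KO_F. The inducible peptidase gene Psmb8, which is outside the symbol rule, fell in males from 15.7 ± 1.8 to 11.1 ± 0.49 TPM (-0.46, adjusted p = 0.0204) and stood at 7.24 ± 0.95 and 7.11 ± 0.29 TPM in females. Psmb10, the inducible counterpart of Psmb7, was at 48.3 to 53.3 TPM in WT_M and 43.2 to 50.02 TPM in KO_M (-0.12, adjusted p = 0.284). The part of the interferon list in the values of Psme1 and Psmb8 was not tested.

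None of the remaining caps passed against WT. Psme3, of the nuclear cap, was at 146 to 156 TPM in WT_F and 133 to 139 TPM in KO_F (-0.15, adjusted p = 0.0502), without overlap, and overlapped in males (-0.04). Psme4, of the single-chain cap PA200, and the inhibitor gene Psmf1 did not pass against WT in either sex.

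Enzymes and shuttles bring substrates to the proteasome or trim their ubiquitin. Of 14 tested, 2 fell in males, where 21.6% of all genes passed, and 1 rose in females, where 11.5% did. Rad23b, a shuttle factor, fell from 231, 246 and 227 TPM in WT_M to 179, 179 and 174 TPM in KO_M (-0.40 ± 0.042, adjusted p = 0.000801), and Ubqln1, another shuttle, from 140 ± 1.5 to 124 ± 0.83 TPM (-0.18, adjusted p = 0.0114). In females Rad23b was at 208 ± 3.0 and 194 ± 21.7 TPM. Ubqln2 rose in females from 71.8 ± 2.7 to 85.2 ± 3.1 TPM (0.24, adjusted p = 0.02003). The deubiquitinase gene Usp14 was at 111 to 116 TPM in WT_M and 99.9 to 107 TPM in KO_M (-0.12, adjusted p = 0.0995).

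Of the 6 ubiquitin and E1 genes, 1 passed in each sex, and it was the polyubiquitin gene Ubb, which fell in both, where 10.9% of all genes fell in males and 5.84% in females. It was at 1135, 1137 and 1122 TPM in WT_M and at 1024, 1040 and 1050 TPM in KO_M (-0.12 ± 0.026, adjusted p = 0.0146). In females it was at 1109, 1114 and 1114 TPM in WT_F and at 1003, 923 and 991 TPM in KO_F (-0.19 ± 0.035, adjusted p = 0.0170). All 6 KO libraries were below all 6 WT libraries.

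The male and female comparisons share no library, so their values can be set side by side. Over the 47 genes 28 had the same sign (59.6%), 16 lower and 12 higher, against 61.0% of all genes tested. Pearson's r across genes was 0.56 for the members and 0.23 for all genes, as a description over genes that are not independent. Psmd8 was the only member called lower in both sexes, among 4 called lower in males and 2 in females. How many of all tested genes were called lower in both sexes was not counted, so this overlap has no background to be set against.

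Between the sexes within a genotype few members passed. Of 47, 1 passed between WT_M and WT_F (2.13%), where 12.8% of all genes did, 6.26% higher in males and 6.56% lower. It was Psmb4, a beta subunit, at 369, 379 and 359 TPM in WT_M and 329, 317 and 345 TPM in WT_F (0.16 ± 0.041, adjusted p = 0.0482). In KO_M it was at 354, 341 and 388 TPM and in KO_F at 332, 336 and 337 TPM, again without overlap but not past the threshold (0.10, adjusted p = 0.208). Psmb4 kept its call in 5 of 14 alternatives, 1 of them among the 6 fits with a library left out. With quantile normalization and without WT_M replicate 3, the 1 member called was a different one. Between KO_M and KO_F 2 passed (4.26%), both lower in males, against 16.6% of all genes, 8.17% higher and 8.39% lower. These were Psmd12 and Psme4, the latter at 37.2, 38.9 and 35.6 TPM in KO_M and 44.0, 42.7 and 43.2 TPM in KO_F (-0.21 ± 0.054, adjusted p = 0.0397). Psme4 was at 39.2, 41.1 and 39.4 TPM in WT_M and at 38.8, 43.1 and 40.9 TPM in WT_F, which overlap, and it kept its call between the KO groups in 7 of 14 alternatives, 1 of them among the 6 left-out fits. The 2 comparisons between sexes use the same libraries as those between genotypes and add no independent samples.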

How the data were processed

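Polyadenylated RNA of 12 cultures, 3 per group, was sequenced. The authors quantified paired reads with Salmon (1.10.1 in the submitters' processing notes) against GRCm38 and deposited TPM values per gene, from which depth is unknown. 99.4% of the identifiers matched GENCODE vM21, which gave symbols and positions. limma 3.58.1 in R 4.3.3, with a mean-variance trend, was run on log2(TPM + 1) for 12504 genes (those averaging 1 TPM or more), in fits of 6 libraries (12 for the interaction). A gene passed when its p, adjusted over all these genes by Benjamini-Hochberg, was under 0.05, and fold changes are on that log2 scale. TPM are not counts, so the authors' DESeq2 was not used. On simulated data for KO_M against WT_M, 200 of 12504 genes were changed. Of these, 74% of changes of 1 and 40% of changes of 0.5 on the log2 scale were recovered, with 9.52% of calls false. A larger share passed in the data (21.6%), and no member differed by more than 0.5 in males. Recovery of changes as small as those of the members was not simulated.

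The members and lists were chosen with earlier results of these data known. Values in every library are given for Nfe2l1, Pomp, the 3 peptidase genes and the members past the threshold. Psme2 and Psmd13 were added after their values were seen. Replicate numbers were not stated to pair cultures. Alternatives were a pseudocount of 0.1, other filters (none, or 5 TPM), 2 other scalings, no trend, all 12 libraries in one fit, a replicate block and leaving out each library. Annotated exons of Psme1 overlap those of Emc9 by 14 bases on the other strand.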

Additional observations from a re-analysis of the deposited data

Results flagged for a closer look

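Psmd12 and Psmd7, both lid genes, were picked out because their KO against WT differences differed between males and females by the interaction test over all 12 libraries. The male difference minus the female one was -0.19 on the log2 scale for Psmd12 and -0.14 for Psmd7. All 3 KO_M libraries lay below all 3 WT_M libraries for Psmd12, and all 3 KO_F libraries above all 3 WT_F libraries for Psmd7. Both genes were picked from these same libraries, so this adds no support. With a library left out, the interaction call held in 3 of 12 fits for Psmd12 and in 1 of 12 for Psmd7. Groups of 3 were too small for the search for single libraries far from the others.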

How the results depend on the processing

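Psmd8 kept its call in both sexes under all alternatives, and no other member did. The number of members called moved most. In males it was 5, and 1 without the mean-variance trend, 9 with all 12 libraries in one fit, and 1 to 4 with a library left out (1 without KO_M replicate 1 or 3). In females it was 3, and 1 without the trend, 5 with a minimum of 5 TPM or all 12 libraries, and 1 to 2 with a library left out. For the interaction it was 2, and 1 with either other scaling, 0 without the trend, and 0 to 1 with a library left out. Between WT_M and WT_F it was 1, and 0 without a filter or without the trend, 2 with median-of-ratios scaling, 3 with all 12 libraries, and 0 to 1 with a library left out. Between KO_M and KO_F it was 2, and 0 without the trend, 5 with all 12 libraries, and 0 to 4 with a library left out. The cause was not tested, beyond the fewer libraries of the left-out fits. Nfe2l1 in males passed with a minimum of 5 TPM (0.23, adjusted p = 0.0442), quantile normalization (0.25, adjusted p = 0.0413), all 12 libraries in one fit (0.23, adjusted p = 0.0193) and without WT_M replicate 2 (0.30, adjusted p = 0.0253), and its values ran from 0.19 to 0.30 with a library left out.

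Small values that did not pass changed sign. Psmd13 in males was 0.0077 with median-of-ratios scaling, 0.0020 with quantile normalization and -0.042 to 0.029 with a library left out (above 0 without WT_M or KO_M replicate 3). With a library left out, Psmb4 ran from -0.086 to 0.0082 in males (above 0 without KO_M replicate 2) and from -0.0081 to 0.053 in females, and Pomp from -0.0040 to 0.28 in females (both below 0 without WT_F replicate 2). The regulatory median between KO_M and KO_F ran from -0.0070 (without KO_F replicate 1) to 0.039. The other scalings moved the median of all genes by at most 0.027.

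Replicate numbers did not pair the libraries (correlations of same-numbered deviations from -0.057 to 0.078). With the replicate number as a block, 4 members were called in males, 1 in females, and 0 in the interaction and both comparisons between sexes.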
